A study of Mus musculus with 27 samples.

Results

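The 8 genes described here carry the Hedgehog signal in mouse skin: the ligand Shh, its receptor Ptch1, the signal transducer Smo, the transcription factors Gli1, Gli2 and Gli3, and the inhibitors Hhip and Sufu. They were picked by symbol, and all 8 were found among the 51906 rows of the RNA-seq count table and among the 32285 genes of each single cell matrix. The study asked how hair follicle stem cells (HFSCs), the cells that rebuild the hair, settle their identity in culture and in skin, with retinoic acid as the main cue. Of its 27 samples, 8 RNA-seq libraries and 4 single cell RNA-seq (scRNA-seq) matrices were used here, the latter with their 2 hashtag libraries. Another 8 samples of chromatin accessibility (ATAC-seq) and 5 of CUT&RUN were not used here.

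The in vivo matrices came from back skin of 2 wild-type mice at postnatal day 32, when follicles are growing, after a sort for cells without CD45, CD31, CD140a and CD117. The cultured matrices held HFSCs from the same mice, sorted on CD34, passaged 2 times and grown in 3D cultures. Hashtags marked 7 conditions: fetal bovine serum (FBS), the serum-free supplement B-27, all-trans-retinoic acid with a protein kinase C inhibitor (atRA+PKCi), and atRA+PKCi with R-spondin (Rspo), with BMP2/4, with both, or with both and a retinoic acid receptor inhibitor (RARi). The RNA-seq libraries came from HFSC cultures of wild-type mice and of mice that carried Sox9-CreER, Rxra-fl/fl and R26-YFP (Rxra cKO), at postnatal day 55. Cells of 2 mice per genotype were grown in FBS and in atRA+PKCi, so each group had 2 libraries. In the cKO, Cre was driven from Sox9 and removes Rxra, a partner of the retinoic acid receptors, and lines had been started on inactivated feeder cells. Whether the wild-type mice carried Cre is not given in the sources used here.

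Hedgehog signaling turns on when a ligand binds PTCH1, which otherwise holds SMO inactive. Active SMO gathers in the primary cilium, SUFU lets go of the GLI proteins, and GLI2 acts mainly as an activator while GLI3 acts mainly as a repressor. Gli1, Ptch1 and Hhip are themselves general targets of the pathway, so their transcripts are widely used as its readout. In the growing hair follicle, SHH is made by matrix cells at the base of the follicle and is needed for the follicle to grow down, and the dermal papilla beneath them is among the tissues that receive it.

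The RNA-seq fold changes below turn on Ptch1 and Gli2, which were lower in Rxra cKO than in wild-type cultures in both media, also with any 1 library left out. Their upstream sequences are shown for that reason. Both are RefSeq promoter windows on GRCm38.p6, cut to the 250 bases before the gene start and written 5′ to 3′ on the minus strand, with GC boxes (GGGCGG) in capitals. The Ptch1 window lies at chr13:63565736-63565985, inside introns of 2 longer Ptch1 transcripts and in no exon. The Gli2 window lies at chr1:119053620-119053869 and overlaps no annotated feature.
Ptch1: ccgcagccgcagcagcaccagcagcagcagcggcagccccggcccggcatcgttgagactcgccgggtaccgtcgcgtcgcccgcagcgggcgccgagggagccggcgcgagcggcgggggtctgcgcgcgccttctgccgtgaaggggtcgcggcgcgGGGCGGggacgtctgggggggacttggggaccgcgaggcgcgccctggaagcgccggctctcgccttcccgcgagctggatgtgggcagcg
Gli2: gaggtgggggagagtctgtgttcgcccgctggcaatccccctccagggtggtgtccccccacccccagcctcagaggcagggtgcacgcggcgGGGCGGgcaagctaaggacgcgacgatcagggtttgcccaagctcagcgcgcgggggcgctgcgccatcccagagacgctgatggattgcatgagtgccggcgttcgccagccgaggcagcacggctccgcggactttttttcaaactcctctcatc
The Ptch1 window had 78.4% G or C and 41 CpG sites, and its GC box began 91 bases before the start. The Gli2 window had 67.2% G or C and 22 CpG sites, with a GC box 157 bases before the start. Windows were at hand for 6 of the 8 members, all but Shh and Gli1. Searched on both strands, the GC box was found in 5 of these 6 windows, not in Smo, and in 32.7% of the 32851 windows of 27025 genes. The GLI site GACCACCCA was in none of the 6 windows and in 0.225% of all, and the retinoid receptor motifs AGGTCA or AGTTCA or GGGTCA or GGTTCA were in none of the 6 and in 38.6% of all. These matches describe the letters of the windows only.

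In skin, the ligand and its inhibitor were highest in different cells. Shh was highest in the hair matrix, and Hhip, a membrane protein that binds and sequesters the ligand, was highest in the dermal papilla. Ptch1, Gli1 and Gli2 were high in both of these and in the dermal sheath and outer root sheath (ORS), the stem cell-derived outer layer of the follicle. Within the ORS class, Ptch1 and Gli1 were high in cluster 22 and lower in the other clusters. Levels are given as CPM, the UMIs of a gene scaled to the total UMIs of the class, in each of the 2 mice, and the mice, not the cells, are the replicates. After filters there were 13625 and 13608 cells per mouse, with medians of 8671 and 10463 UMIs. The 29 clusters gave 14 named classes and 9 unnamed clusters. Despite the sort, 11121 cells were fibroblast class, and 604 immune, 212 endothelial and 185 melanocyte class cells were present. The mice shared 62 barcodes. Members and their pathway genes were kept out of the features used for clustering, and classes are described with no test. Keratin 14 gave a UMI in 18.8% of dermal papilla cells and 22.5% of immune cells, and levels were not corrected for free RNA.

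The dermal papilla and fibroblast classes carried their markers. All 8 dermal papilla markers, such as Corin and Rspo3, were detected in the dermal papilla class and summed to 10092 and 9651 CPM there. The fibroblast markers summed to 50413 and 62682 CPM in the fibroblast class. The matrix name was less secure, since no class was named matrix with stricter cell filters. The matrix list, with Lef1 and Msx2, was also less clean. It summed to 1044 and 1139 CPM in the matrix class of 3424 cells, below the 2041 and 2605 CPM of the hair shaft class, which arises from the matrix.

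Shh stood at 27.8 and 45.5 CPM in the hair matrix, 36.6 ± 12.5 (SD, n = 2 mice). The hair shaft followed at 9.35 and 19.2 CPM and the inner root sheath, another matrix product, at 12.2 and 7.79 CPM. These 2 classes overlapped each other, and both lay below the matrix in both mice. The ORS had 0.731 and 4.18 CPM, the dermal papilla 1.62 and 2.33 CPM, and the fibroblasts 1.02 and 1.60 CPM. No Shh UMI was found in the 185 melanocyte class cells. The matrix held 64.5% of all Shh UMIs with 12.6% of the cells. A Shh UMI was seen in 10.8% and 11.5% of matrix cells against 0.894% and 1.77% of fibroblasts, which should lack the gene, at median depths of 11317 and 10036 UMIs for these classes. With each cell thinned to 3000 UMIs the shares were 5.19% and 8.54% in the matrix and 0.353% and 0.320% in fibroblasts, after 82 and 358 shallower matrix cells were left out. ORS cells, at 0.334% and 0.529%, were near the fibroblast share. When clusters were cut more finely, at a resolution of 1.0 in place of 0.6, the matrix class became smaller and its Shh mean was 61.5 CPM.

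**Figure D1:**
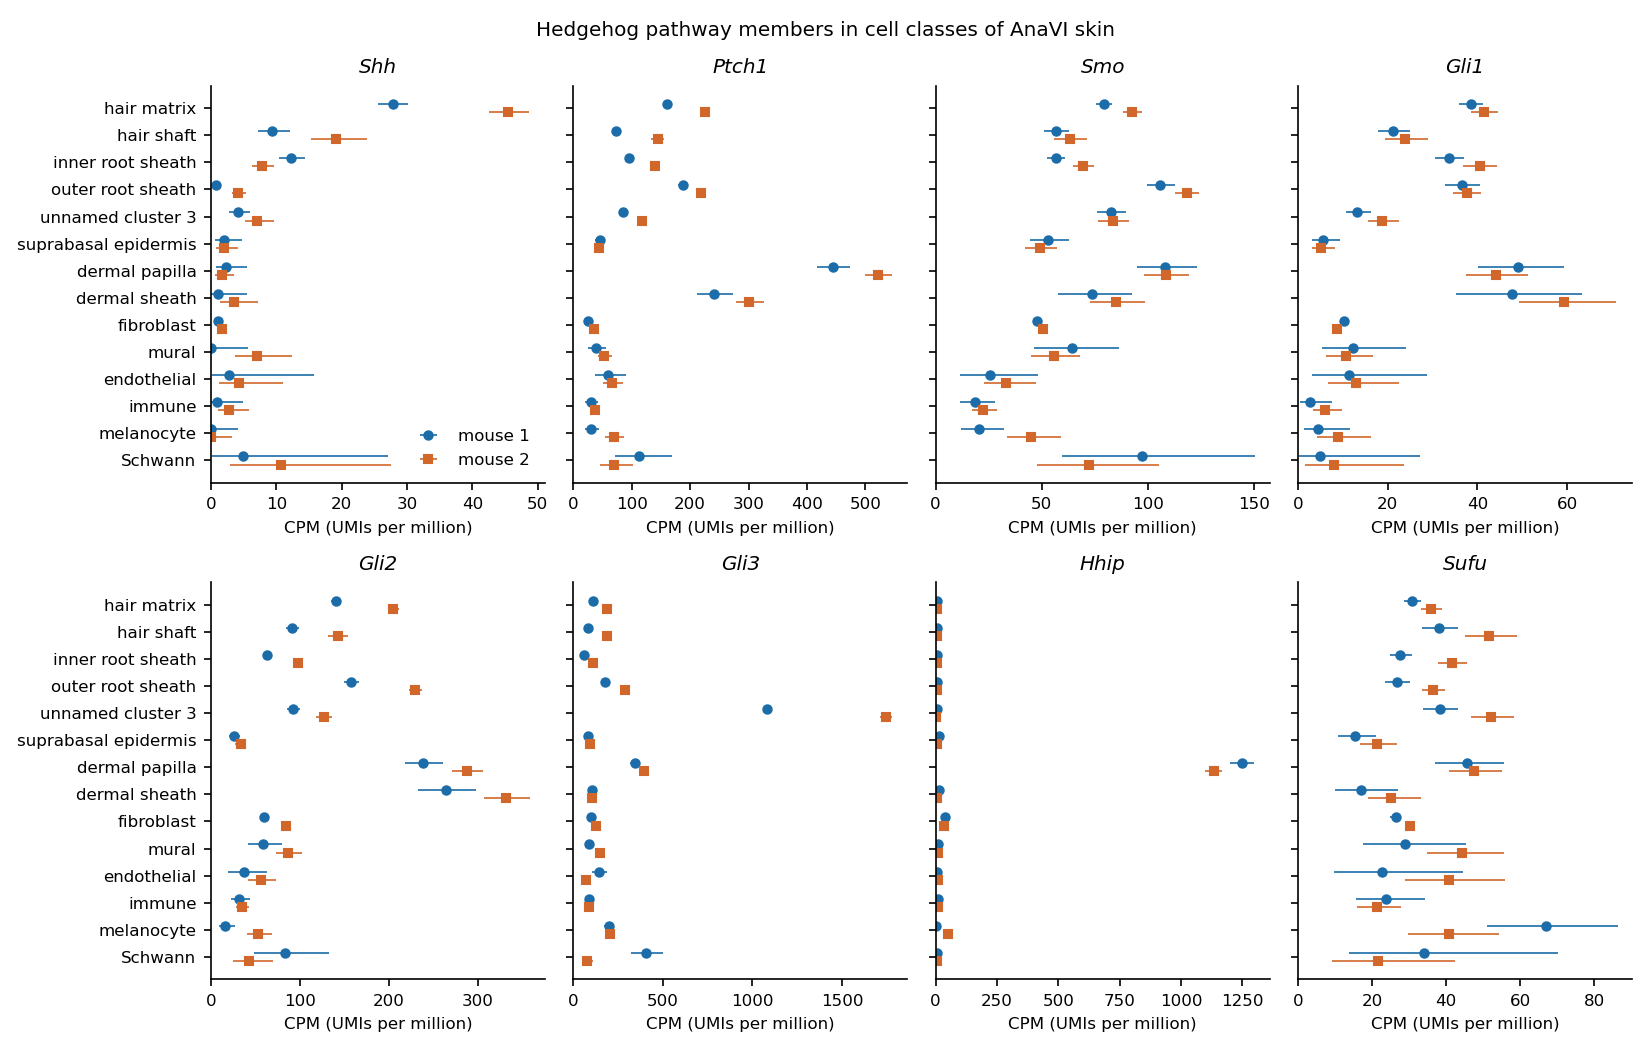
Level of each of the 8 members (CPM) in 13 named classes and unnamed cluster 3 of skin cells. Each point is 1 mouse and bars are exact 95% intervals, which cover counting error only. Shh was highest in the hair matrix (27.8 and 45.5 CPM) and Hhip in the dermal papilla (1248 and 1133 CPM).

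Ptch1, the receptor and target, was highest in the dermal papilla at 444 and 522 CPM (483 ± 54.8, SD, n = 2 mice). The dermal sheath came next with 241 and 301 CPM, clear of the dermal papilla in both mice. The ORS, at 187 and 219 CPM, and the matrix, at 160 and 226 CPM, overlapped. The inner root sheath had 95.6 and 140 CPM, the hair shaft 72.2 and 144 CPM, and the fibroblasts 30.0 ± 7.56 CPM (SD, n = 2 mice). Among these pooled classes, the one with most Shh transcript was not the one with most Ptch1 transcript. This did not hold for all of the matrix cells. When clusters were cut more finely, at a resolution of 1.0, cluster 31, named hair matrix, had the highest Shh of all clusters. Its Ptch1 was high as well, as given under the other observations below. Smo, which passes the signal on, varied less. It had 106 and 118 CPM in the ORS, 108 and 108 CPM in the dermal papilla and 79.4 and 92.6 CPM in the matrix, against 49.3 ± 1.98 in fibroblasts and 20.4 in immune cells. The ORS and dermal papilla did not differ beyond their spread.

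Of the transcription factors, Gli1 was highest in the dermal sheath, at 47.8 and 59.3 CPM, and the dermal papilla, at 49.0 and 44.1 CPM, which overlapped. The matrix had 38.6 and 41.5 CPM, the ORS 36.6 and 37.6 CPM and the inner root sheath 33.6 and 40.5 CPM. Fibroblasts had 9.57 ± 1.11 CPM (SD, n = 2 mice). Gli2 had 264 and 332 CPM in the dermal sheath, 239 and 288 CPM in the dermal papilla, 158 and 230 CPM in the ORS and 140 and 205 CPM in the matrix. The dermal sheath and dermal papilla overlapped, as did the ORS and matrix, and the first pair lay above the second in both mice. The fibroblast level of Gli2 was 71.7 ± 17.0 CPM. Gli3 was unlike both. Its highest level, 1082 and 1746 CPM, was in unnamed cluster 3, 1152 cells led by Gpnmb, Tchh, Foxq1, Csta1 and Aldh1a3. Tchh is on the inner root sheath list and Foxq1 on the hair shaft list, so the cluster was left without a name. This cluster held 33.7% of all Gli3 UMIs with 4.23% of the cells. The dermal papilla had 343 and 396 CPM of Gli3, the ORS 177 and 286 CPM, the matrix 111 and 190 CPM and the fibroblasts 100 and 128 CPM. Schwann cells gave 404 and 75.2 CPM from 28 and 60 cells, so that level was set by 1 mouse.

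The inhibitors differed from each other. Hhip stood at 1248 and 1133 CPM in the dermal papilla (1191 ± 81.8, SD, n = 2 mice). No other class had a mean above 36.1 CPM. Fibroblasts had 36.1 and 35.7 CPM, the ORS 7.10 and 7.26 CPM and the matrix 3.93 and 4.86 CPM. Thinned to 3000 UMIs, 88.6% and 83.6% of dermal papilla cells had a Hhip UMI, against 5.98% and 6.004% of fibroblasts and 1.20% and 1.22% of matrix cells. The dermal papilla class held 56.5% of all Hhip UMIs with 3.57% of the cells. Fibroblasts, with 40.8% of the cells, held 35.4%. Sufu, which holds GLI proteins in the cytoplasm, had class means from 12.6 CPM in unnamed cluster 20 to 53.8 ± 18.6 CPM in melanocytes, with 46.6 ± 1.32 in the dermal papilla and 28.3 in fibroblasts.

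Within the ORS class the targets differed between clusters. Cluster 22, led by Grm7, Slc39a10 and the stem cell gene Lgr5, had 452 and 491 CPM of Ptch1 and 71.6 and 69.5 CPM of Gli1. Cluster 10, led by Kcnb2 and Barx2 and with Krt15, had 65.9 and 76.5 CPM of Ptch1 and 18.7 and 21.1 CPM of Gli1. Cluster 13, led by Pthlh, Krt6a and Krt14, had 43.8 and 45.8 CPM of Ptch1 and 22.2 and 16.2 CPM of Gli1. The Ptch1 values of the 850 cells of cluster 22 overlapped those of the dermal papilla. Of these clusters, cluster 22 matched the ORS marker list least well. Keratin 14 gave a UMI in 53.6% of its cells, against 84.4% in cluster 10 and 94.3% in cluster 13. At a resolution of 1.0, the cluster led by the same genes, of 840 cells, got no name. Among the fibroblasts, Hhip was highest in cluster 11, which was led by Cdh4, Clec11a and Vit, at 106 and 104 CPM. In cluster 4, led by the interferon genes Isg15 and Bst2, Hhip was 63.5 CPM in mouse 1 and 9.79 CPM in mouse 2. That cluster drew 500 and 2529 cells from the mice, while fibroblast cluster 2 drew 2896 and 64. The fibroblast class as a whole had 5596 and 5525 cells. The libraries were clustered together without correction, so differences in cell makeup, cell state and library cannot be told apart.

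Shh was unevenly spread over matrix cells. Cells with 5 or more Shh UMIs, a threshold set after the values were seen, numbered 51 and 88 in all and 37 and 69 in the matrix class. They held 41.8% and 58.8% of the Shh UMIs of each mouse. A further 162 and 114 matrix cells had 1 to 4. Values for these sets are a description, since the cells were chosen on Shh. In cells with 5 or more, Scube1, a secreted protein of the family that frees the ligand from the membrane, was 318 and 327 CPM against 8.31 and 10.0 CPM in matrix cells with none. Disp1, which exports the ligand, was 60.1 and 89.6 CPM against 24.8 and 36.1 CPM. Boc, a co-receptor, went the other way at 19.3 and 21.7 CPM against 64.6 and 73.8 CPM. The matrix markers Edar, at 228 and 292 CPM against 34.7 and 62.4 CPM, and Wnt10b, at 112 and 108 CPM against 8.15 and 9.79 CPM, were higher in the cells with Shh. Lef1, Msx2, Mki67 and Krt14 were also measured in these sets and are not given. Edar and Wnt10b therefore do not stand for the matrix list, and whether these cells were more matrix-like was not tested.

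The targets Ptch1 and Gli1 differed less between these sets. Ptch1 was 152 and 235 CPM in cells with 5 or more Shh UMIs, 129 and 157 CPM in those with 1 to 4 and 163 and 232 CPM in cells with none. Gli1 was 60.1 and 41.5 CPM, 40.3 and 33.7 CPM, and 37.9 and 42.3 CPM in the same order, so that cells with 5 or more were above those with none in 1 of 2 mice. Gli2 was 133 and 118 CPM against 144 and 218 CPM. Cells with 1 to 4 Shh UMIs fell between the others for Scube1 (125 and 146 CPM) and Boc (34.4 and 28.4 CPM). Deeper cells have more chance of 5 UMIs, so the sets were also compared among cells with 8000 to 20000 UMIs, with 24 and 49 against 1184 and 729 cells. There Scube1 was 322 and 347 CPM against 7.97 and 8.12 CPM, Disp1 was 76.1 and 98.5 CPM against 22.7 and 33.7 CPM, and Boc was 20.8 and 21.9 CPM against 63.2 and 78.1 CPM. At this depth Gli1 was 69.2 and 48.5 CPM in cells with 5 or more, 40.4 and 33.4 CPM with 1 to 4 and 38.3 and 39.6 CPM with none, so that cells with 5 or more were highest in both mice. The counting intervals of cells with 5 or more and with none overlapped in mouse 2 (32.9 to 68.8 and 35.8 to 43.7 CPM) and not in mouse 1 (42.3 to 107 and 35.2 to 41.5 CPM). These intervals leave out variation between cells, and the cells were chosen on Shh, so this is no test of Gli1. Ptch1 was 145 and 252 CPM, 118 and 154 CPM, and 157 and 228 CPM in the same order.

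**Figure D2:**
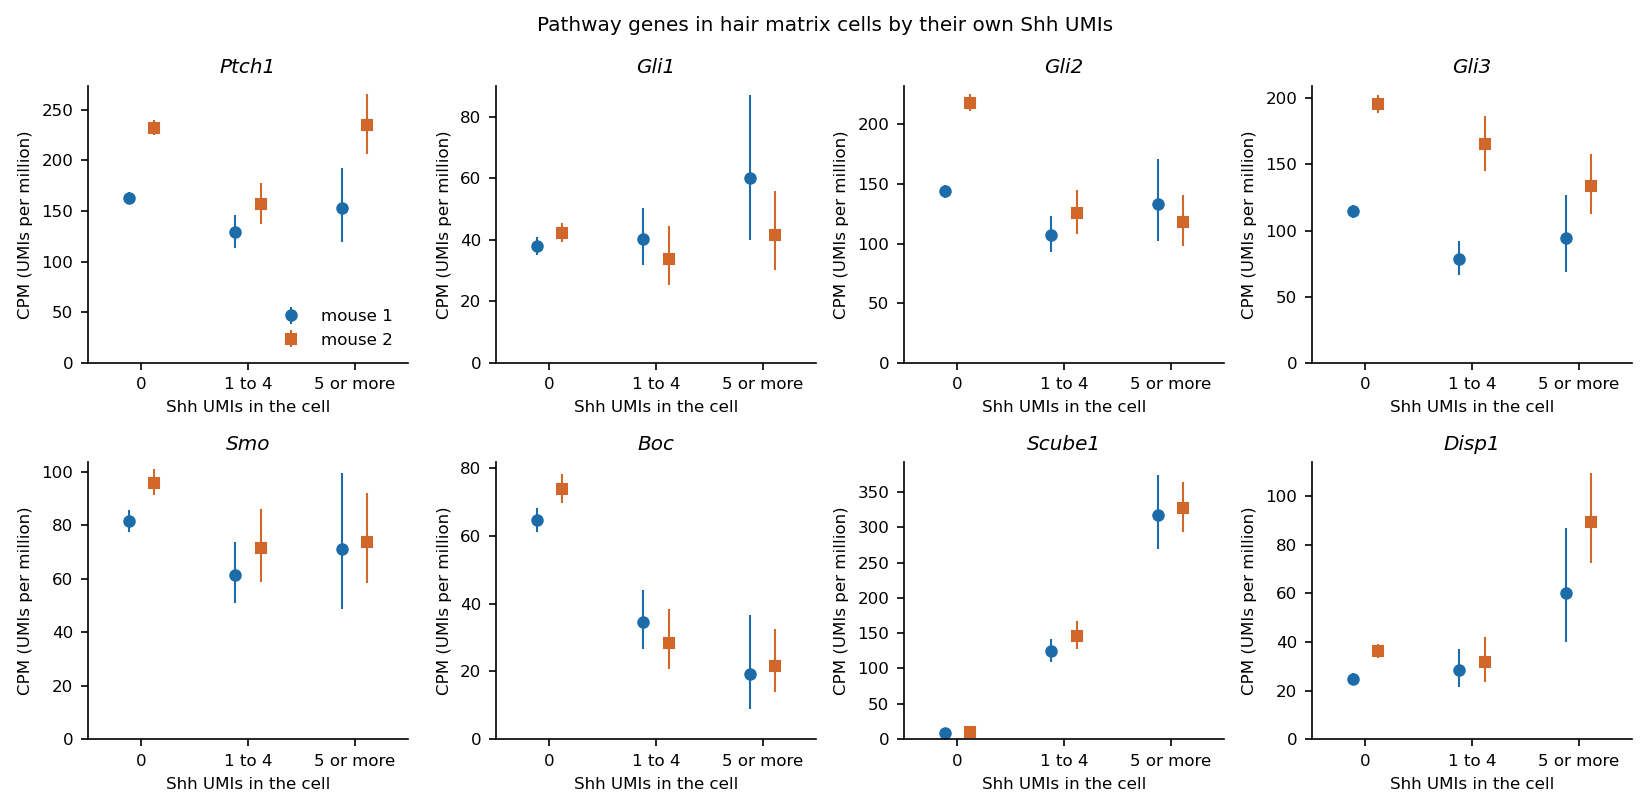
Level (CPM) of 8 pathway genes in hair matrix cells with 0, 1 to 4, or 5 or more Shh UMIs, for each mouse, with exact 95% intervals for counting error. Scube1 and Disp1 were higher in cells with more Shh, Boc was lower, and Ptch1 was lowest in cells with 1 to 4 (129 and 157 CPM).

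Other genes of the pathway had homes of their own. Scube1 and Scube3 were highest in the dermal papilla, at 355 ± 53.1 and 271 ± 114 CPM (SD, n = 2 mice), while Scube2 was highest in the matrix at 52.5 ± 4.25 CPM. The ligand Dhh, known from peripheral nerve, was at 69.5 ± 15.6 CPM in Schwann cells and at most 2.68 CPM elsewhere. The ligand Ihh did not pass 0.498 CPM in any class. The co-receptors Gas1 and Cdon led in unnamed cluster 5, at 334 and 255 CPM, and were at 203 ± 86.8 and 135 ± 53.2 CPM in fibroblasts. Boc led in unnamed cluster 19 at 136 CPM. Among genes reported as targets, the cyclin Ccnd2 was at 1460 ± 25.2 CPM in the matrix and the survival gene Bcl2 at 540 ± 154 CPM in the dermal papilla.

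Likeness was measured by Pearson's r of log2(CPM + 1) over 46 points, 23 classes or clusters in 2 mice, among 7783 genes with at least 50 CPM in both mice in 1 or more of these classes or clusters. The points share 2 libraries, and no p is given. Gli1 did not reach that level, so it was not among the genes ranked, although its r with Ptch1 was higher than those that follow. Among the ranked genes Ptch1 was most like Ctdspl (0.823), Gli2 (0.788), Robo1 (0.760), Hdac4 (0.753) and Tmtc1 (0.727). The ranked genes most like Gli1 were Ptch1 (0.836), then Tmtc1 (0.761), Lrig3 (0.754), Gli2 (0.740) and Robo1 (0.6998). Hhip was most like Pappa2 (0.829), Rspo2 (0.803), Zic4 (0.800), Snap91 (0.795) and Lingo2 (0.788). For Shh the values were lower, with Tbl1xr1 (0.726), Slf1 (0.715), Ints7 (0.714), Atad5 (0.705) and Polr2b (0.693).

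In the RNA-seq libraries of cultured HFSCs, the ligand and the dermal papilla inhibitor were nearly absent. Shh had 0 counts in all 8 libraries of 25150200 to 35879600 counts. Hhip had 5 and 2 counts in wild-type atRA+PKCi and 0 in the other 6 libraries, and neither gene was tested. The other 6 members were measured in every library. Per kb of exon, the mean level in wild-type FBS was 23.9 CPM for Smo, 3.22 for Sufu, 2.58 for Gli2, 1.77 for Gli3, 1.23 for Ptch1 and 0.258 for Gli1. The receptor's partner Smo was the most abundant of them, and the target Gli1 was the least. Bulk libraries cannot tell fewer cells of a type from less RNA per cell.

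Rxra itself was at 149 and 122 CPM in wild-type FBS and 97.2 and 95.7 CPM in cKO FBS, a log2 fold change of -0.49 (SE 0.09, adjusted p = 0.00264, edgeR). In atRA+PKCi it was at 147 and 143 CPM in wild-type and 148 and 145 CPM in cKO, with a log2 fold change of 0.01 (adjusted p = 0.927, edgeR). A gene-level count includes exons outside the deleted part, so it does not check the deletion. Fibroblast markers summed to 1.35 to 11.6 CPM in any library, with Lum at 0 in all 8. Other markers of the list were present, with Pdgfra at 21 to 162 counts, Col1a1 at 10 to 92 and Col3a1 at 5 to 30. Pdgfra was at 5.44 and 4.91 CPM in wild-type FBS, 0.706 and 0.665 CPM in wild-type atRA+PKCi, 4.03 and 5.25 CPM in cKO FBS and 1.65 and 1.27 CPM in cKO atRA+PKCi. The ORS markers summed to 15304.8 to 34514.8 CPM.

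Genotype in FBS gave the most calls. Ptch1, Smo, Gli1 and Gli2 were lower in cKO than in wild-type HFSCs, which is 4 of 8 members, or 4 of the 6 tested, against 20.5% of the 15965 genes tested that were lower. None was higher, against 22.3% of all genes. Ptch1 was at 20.1 and 14.7 CPM in wild-type and 7.12 and 5.34 CPM in cKO, a log2 fold change of -1.48 (SE 0.18, adjusted p = 0.000226, by edgeR's quasi-likelihood F test, adjusted after Benjamini and Hochberg over all genes, as for all RNA-seq values here). Gli2 was at 20.2 and 15.2 CPM in wild-type and 7.52 and 6.87 CPM in cKO, -1.30 on the log2 scale (SE 0.15, adjusted p = 0.000161). Gli1 had 40 and 29 counts in wild-type and 9 and 4 in cKO, so its fold change of -2.51 (SE 0.48, adjusted p = 0.00297) rests on few reads. Smo was at 140.4 and 128.8 CPM in wild-type and 93.7 and 94.4 CPM in cKO, -0.52 (SE 0.07, adjusted p = 0.000315). The groups did not overlap for any of these.

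Gli3 and Sufu were not called. Gli3 was at 19.5 and 14.5 CPM in wild-type and 16.1 and 13.7 CPM in cKO (log2 fold change -0.19, adjusted p = 0.34), and Sufu at 28.8 and 20.7 CPM in wild-type and 20.97 and 18.8 CPM in cKO (-0.32, adjusted p = 0.105). All 6 tested members were lower in wild-type FBS replicate 2 than in replicate 1. Without replicate 2, Gli3 (-0.38, adjusted p = 0.0354) and Sufu (-0.54, adjusted p = 0.00339) were called lower too. The median log2 fold change of the tested members was -0.91, beside 0.02 for all genes. Members were chosen with earlier results of these data known, so this is a description.

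**Figure D3:**
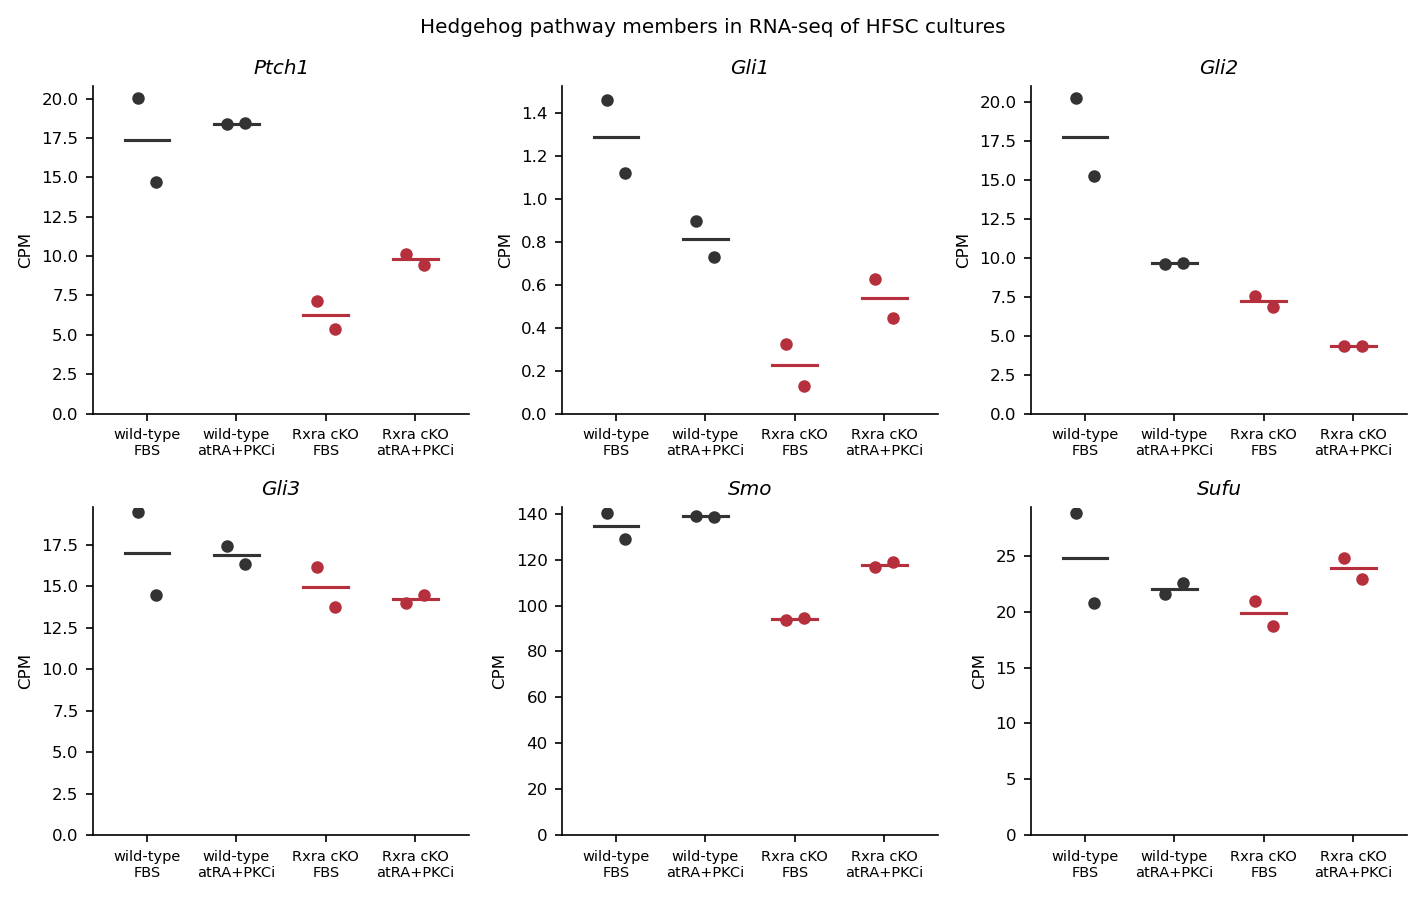
Level (CPM) of the 6 members tested in the 8 RNA-seq libraries. Each point is 1 library, the line is the mean of 2, and the groups are the genotypes (wild-type, Rxra cKO) in each medium. Ptch1 and Gli2 were lower in both cKO groups than in wild-type cells of the same medium, while Gli3 and Sufu overlapped between genotypes in FBS.

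In atRA+PKCi, Ptch1, Gli2 and Smo were again lower in cKO, and Gli1 was not called. Lower in cKO were 3 of 8 members, or 3 of the 6 tested, against 20.2% of all genes tested. Higher were 0, against 23.0%. Ptch1 was at 18.4 and 18.4 CPM in wild-type and 10.2 and 9.42 CPM in cKO, a log2 fold change of -0.91 (SE 0.17, adjusted p = 0.00248). Gli2 was at 9.62 and 9.66 CPM in wild-type and 4.32 and 4.36 CPM in cKO, -1.15 (SE 0.15, adjusted p = 0.000365). Smo was at 139.2 and 138.7 CPM in wild-type and 116.7 and 119.0 CPM in cKO, -0.24 (SE 0.06, adjusted p = 0.0165). This call for Smo was lost without any single one of the 4 libraries (adjusted p = 0.0767 to 0.154) and with limma (adjusted p = 0.0541). Gli1 had 28 and 23 counts in wild-type and 24 and 12 in cKO, with a log2 fold change of -0.58 (adjusted p = 0.31). Gli3 (-0.25, adjusted p = 0.19) and Sufu (0.12, adjusted p = 0.54) were not called.

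The change of medium gave 1 called member in wild-type HFSCs and 3 in cKO HFSCs. In wild-type HFSCs, atRA+PKCi against FBS lowered 1 of 8 members, Gli2, or 1 of the 6 tested, against 26.6% of all genes. The medium raised 0, against 27.2%. Gli2 went from 20.2 and 15.2 CPM to 9.62 and 9.66 CPM, a log2 fold change of -0.88 (SE 0.14, adjusted p = 0.00085). Ptch1 (0.08), Smo (0.05), Gli3 (-0.01), Sufu (-0.17) and Gli1 (-0.66, SE 0.41) had adjusted p values of 0.20 to 0.97. Without wild-type FBS replicate 2, Sufu was also called lower (-0.39, adjusted p = 0.0123).

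In cKO HFSCs, the same change of medium raised 2 of 8 members, or 2 of the 6 tested, against 20.8% of all genes. It lowered 1, against 22.2%. Ptch1 went from 7.12 and 5.34 CPM to 10.2 and 9.42 CPM (log2 fold change 0.66, SE 0.18, adjusted p = 0.0167), and Smo from 93.7 and 94.4 CPM to 116.7 and 119.0 CPM (0.32, SE 0.07, adjusted p = 0.0039). Gli2 was lower here as well, from 7.52 and 6.87 CPM to 4.32 and 4.36 CPM (-0.73, SE 0.15, adjusted p = 0.0052). The call for Ptch1 was lost without cKO atRA+PKCi replicate 1 or 2 or without cKO FBS replicate 2 (adjusted p = 0.0525 to 0.122). Gli1 had 9 and 4 counts in FBS and 24 and 12 in atRA+PKCi, and its log2 fold change of 1.27 did not pass (SE 0.50, adjusted p = 0.071), and it passed without cKO FBS replicate 1 (2.06, adjusted p = 0.0364).

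Whether the medium acted differently in the genotypes was tested as an interaction, wild-type minus cKO. None of the 6 members passed with edgeR, while 24.6% of all genes did, and 3 had an unadjusted p under 0.05. These were Gli1 (-1.93, adjusted p = 0.060), Smo (-0.28, adjusted p = 0.057) and Ptch1 (-0.58, adjusted p = 0.12). DESeq2 called 1, Smo (adjusted p = 0.0455), and limma called 0. Without wild-type FBS replicate 2, Ptch1, Smo and Sufu were called, and without cKO FBS replicate 1, Gli1 was. The responses of the genotypes in Ptch1 and Smo are therefore not shown to differ, nor to be alike.

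**Figure D4:**
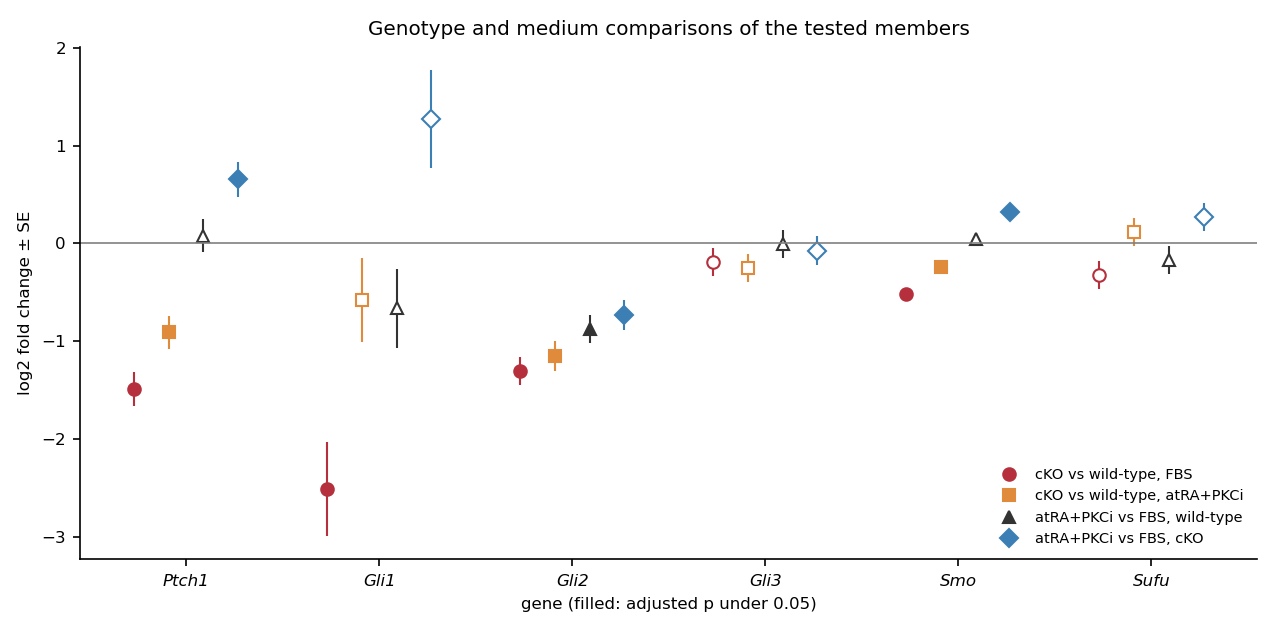
Log2 fold change of each of the 6 members in 4 comparisons of RNA-seq groups, with bars of 1 SE and filled points at an adjusted p under 0.05. Gli2 was lower in all 4 comparisons, and Ptch1 and Smo were lower in cKO in both media.

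The lists that follow were chosen with earlier results of these data known. Their counts and medians beside all genes are therefore a description and no test. The ligand release list holds the ligands Shh, Ihh and Dhh and 5 genes that modify or release them. Ihh had 0 to 5 counts in a library and was not tested, while Dhh had 92 to 320. Of the 8 genes, 4 were tested, Dhh included, and 3 rose and 0 fell with atRA+PKCi in each genotype, against 27.2% of all genes higher in wild-type and 20.8% in cKO. Scube3 went from 0.328 and 0.270 CPM to 9.04 and 7.67 CPM in wild-type HFSCs (log2 fold change 4.78, adjusted p = 6.04e-07) and by 2.61 in cKO (adjusted p = 2.07e-05). The ligand Dhh rose by 1.02 and 0.72 (adjusted p = 0.00104 and 0.0072). Disp1 rose by 0.59 and 0.61 (adjusted p = 0.00997 and 0.0083). In FBS all 4 were higher in cKO than in wild-type, against 22.3% of all genes, namely Scube3 (1.38, adjusted p = 0.0040), Hhat, the enzyme that palmitoylates the ligand (0.94, adjusted p = 0.0039), Disp1 (0.77, adjusted p = 0.0036) and Dhh (0.75, adjusted p = 0.0078). In atRA+PKCi, Hhat (0.82, adjusted p = 0.0067) and Disp1 (0.79, adjusted p = 0.0023) were higher in cKO and Scube3 was lower (-0.79, adjusted p = 0.0063), against 23.0% of all genes higher and 20.2% lower.

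Among the receptors and binding proteins, 5 of 8 were tested, Ptch1 and Smo included. Gas1, a co-receptor, went from 18.9 and 18.3 CPM in wild-type FBS to 82.3 and 86.8 CPM in wild-type atRA+PKCi, and from 3.88 and 4.79 CPM to 17.8 and 18.1 CPM in cKO. It thus rose with the medium in both genotypes (log2 fold change 2.18 and 2.04, adjusted p = 1.74e-07 and 1.69e-06). It was lower in cKO in both media (-2.10 in FBS and -2.23 in atRA+PKCi, adjusted p = 2.19e-06 and 4.33e-07). Cdon, its fellow co-receptor, fell with the medium in wild-type HFSCs (-1.03, adjusted p = 0.000594). It was lower in cKO in FBS (-0.57, adjusted p = 0.0164) and higher in cKO in atRA+PKCi (0.89, adjusted p = 0.0019). Boc had only 2 and 0 counts in wild-type FBS. Against these, its CPM was 66.2 times as high in wild-type atRA+PKCi (95% counting interval 18.03 to 552, 156 against 2 counts) and 20.0 times as high in cKO FBS (5.21 to 170, 44 against 2 counts), and both were called. In cKO, Boc rose with the medium by 1.69 (adjusted p = 0.0079). Counts of calls among the 5 tested were 2 higher and 1 lower with the medium in wild-type (27.2% and 26.6% of all genes), 4 and 0 in cKO (20.8% and 22.2%), 1 and 4 for cKO in FBS (22.3% and 20.5%), and 1 and 3 for cKO in atRA+PKCi (23.0% and 20.2%).

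Evc and Evc2, which pass the signal on from SMO at the cilium base, were the transduction genes that differed most by genotype. They lie side by side on chromosome 5 on opposite strands. Evc2 was at 6.06 and 4.29 CPM in wild-type FBS, 18.4 and 19.0 CPM in cKO FBS, 8.63 and 7.89 CPM in wild-type atRA+PKCi and 27.4 and 27.1 CPM in cKO atRA+PKCi. The cKO was higher by 1.85 in FBS (adjusted p = 2.34e-05) and by 1.72 in atRA+PKCi (adjusted p = 1.96e-05). For Evc the differences were 1.70 and 1.58 (adjusted p = 1.25e-05 and 9.25e-06). With the medium, Evc (0.87 and 0.75) and Evc2 (0.67 and 0.54) rose in wild-type and in cKO. So did Kif7, a scaffold of GLI proteins at the cilium tip (1.22 and 1.01, adjusted p = 0.00116 and 0.0044), and Iqce, a partner of the EVC proteins (0.50 and 0.64). The ubiquitin adaptor Spop fell in both (-0.26 and -0.37).

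Kinase and receptor genes of the transduction list moved less. Csnk1a1, a kinase that marks GLI proteins, fell with the medium in wild-type (-0.35, adjusted p = 0.0041) and was lower in cKO in FBS (-0.42, adjusted p = 0.0020). Prkaca, the catalytic subunit of protein kinase A, rose with the medium in cKO (0.43), and was lower in cKO in FBS (-0.26, adjusted p = 0.033) and higher in cKO in atRA+PKCi (0.29, adjusted p = 0.023). Gpr161, a ciliary receptor that restrains the pathway, fell with the medium in cKO (-0.61, adjusted p = 0.0011) and was lower in cKO in atRA+PKCi (-0.62, adjusted p = 0.00099), as was Spop (-0.31, adjusted p = 0.0108). In all, of 11 genes, 4 were higher and 2 lower with the medium in wild-type, against 27.2% and 26.6% of all genes, and 5 and 2 in cKO, against 20.8% and 22.2%. For cKO against wild-type they were 2 and 2 in FBS, against 22.3% and 20.5%, and 3 and 2 in atRA+PKCi, against 23.0% and 20.2%. Most of these counts are near the shares over all genes.

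Of the general targets, Gli1 and Ptch1 were tested, and both were lower in cKO in FBS and 1, Ptch1, in atRA+PKCi. Other genes reported as targets did not all go the same way. The forkhead genes Foxf2 and Foxl1 were lower in cKO in both media. Foxf2 had 26 and 31 counts in wild-type FBS against 1 and 2 in cKO, a CPM 20.9 times as high in wild-type (95% counting interval 6.81 to 104). In atRA+PKCi it had 23 and 25 against 1 and 0 counts, 49.7 times as high (8.51 to 2005). Foxl1 was lower in FBS (log2 fold change -2.39, adjusted p = 0.0044), and in atRA+PKCi had 60 and 33 against 2 and 1 counts, 32.1 times as high in wild-type (10.7 to 159). The cyclin Ccnd1 was higher in cKO instead, by 1.37 in FBS and 0.56 in atRA+PKCi. Ccnd2 was higher in cKO in atRA+PKCi (0.76) and not called in FBS (0.065, adjusted p = 0.603). With the medium, Bcl2 (1.01), Ccnd1 (0.91) and Ccnd2 (0.91) rose in wild-type. In cKO, Ccnd2 (1.61) and Bcl2 (0.37) rose and Foxm1 fell (-1.08). Of 8 genes in the list, 6 were tested, with 3 higher and 0 lower with the medium in wild-type (27.2% and 26.6% of all genes), 2 and 1 in cKO (20.8% and 22.2%), 2 and 2 for cKO in FBS (22.3% and 20.5%), and 2 and 3 for cKO in atRA+PKCi (23.0% and 20.2%).

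Genes of the primary cilium, where SMO acts, were all tested. Of 12, 7 were higher and 2 lower with the medium in wild-type, against 27.2% and 26.6% of all genes, led by Tctn1 (1.61), Ift80 (1.28) and Ift27 (1.07). In cKO 5 were higher and 0 lower, against 20.8% and 22.2%, led by Ift27 (0.89), Tctn1 (0.84) and Ift172 (0.66). For cKO against wild-type in FBS, 6 were higher and 2 lower, against 22.3% and 20.5%, led by Ift88 (1.02), B9d1 (0.97) and Ift27 (0.79). In atRA+PKCi 4 were higher and 3 lower, near the 23.0% and 20.2% of all genes, with Dync2h1 (-0.75), Tulp3 (0.75) and Ift27 (0.61) the most changed. The list's median log2 fold change was 0.92 for the medium in wild-type, beside 0.03 for all genes. As the list was chosen with earlier results known, this is no test.

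Marker lists of skin cell classes also differed between these libraries, and of 20 lists, 7 differed over 5-fold between group means. Krt15 was the highest gene of the upper hair follicle list in atRA+PKCi. Krt6a was that of the companion layer list and Foxq1 that of the hair shaft list. The paper uses the keratin KRT15 as an HFSC marker and KRT6 as a wound marker in such cultures. A list sum therefore does not count cells of its class. The upper hair follicle list went furthest, with 89.5 to 90.2 CPM in wild-type FBS, 4494 to 4640 CPM in wild-type atRA+PKCi, 109 to 124 CPM in cKO FBS and 334 to 346 CPM in cKO atRA+PKCi. The inner root sheath list was 668 to 772, 35.2 to 37.8, 63.0 to 76.4 and 58.4 to 60.5 CPM in that order. The companion layer list was 19649 to 19851, 1951 to 1987, 9204 to 10295 and 4289 to 4563 CPM. The hair shaft list was 184 to 212, 248 to 256, 38.9 to 41.2 and 41.5 to 42.3 CPM. These last 3 lists were thus lower in cKO than in wild-type FBS. The dermal sheath list was 22.1 to 23.3 CPM in cKO atRA+PKCi and 2.09 to 2.53 CPM elsewhere. The immune list was 1.56 to 1.86 CPM in cKO atRA+PKCi and at most 0.324 CPM elsewhere. Cell cycle markers summed to 425 to 440 CPM in cKO atRA+PKCi and 797 to 938 CPM elsewhere. The dermal papilla list summed to 10.4 to 10.9 CPM in wild-type FBS, 24.8 to 26.0 CPM in wild-type atRA+PKCi, 5.73 to 5.75 CPM in cKO FBS and 15.4 to 17.1 CPM in cKO atRA+PKCi. Of its 8 markers, 2 to 5 were at 0 in a library. The fibroblast list was 7.65 to 11.6, 1.35 to 4.37, 6.11 to 8.32 and 4.48 to 5.18 CPM in the same order of groups. The suprabasal epidermis list was 4287 to 4533, 279.5 to 280.3, 2280 to 2847 and 809 to 866 CPM, with all 7 of its markers detected. The part of these in the results for members was not tested.

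In the scRNA-seq of cultured HFSCs, no member was called in any comparison. Hashtags were read in 449 and 208 barcodes of the 2 mice, of which 372 and 175 carried 1 hashtag, 77 and 33 were set aside as doublets, and 222 and 78 singly tagged cells passed the filters, with medians of 29434 and 21523 UMIs. No barcode was shared between the mice. Most of the cells were from BMP2/4 (113 and 13) and Rspo+BMP2/4 (92 and 27). B-27 had 5 and 10 cells, Rspo 5 and 6, and Rspo+BMP2/4+RARi 5 and 21. The atRA+PKCi condition had 2 and 1 cells and FBS had 0, so neither was compared. The paper analyzed far more cultured cells than these matrices hold, so the small numbers describe the matrices and not the study. Shh had 0 UMIs in every condition, and 3 UMIs, the limit a count of 0 allows, would be 0.812 CPM in the largest sum of cells. Gli1 and Hhip had 1 UMI each in all, and these 3 members were not tested.

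Ptch1 was at 15.9 and 41.0 CPM in B-27, 7.30 and 0 CPM in Rspo, 14.1 and 17.6 CPM in BMP2/4, 32.6 and 25.3 CPM in Rspo+BMP2/4, and 156 and 26.6 CPM with RARi. Smo was at 26.5 and 59.2, 58.4 and 34.4, 36.5 and 35.2, 36.9 and 32.3, and 72.8 and 38.2 CPM in that order. The highest value of each was from the RARi sum of mouse 1, which held 5 cells. Gli2 was at 90.0 and 100 CPM in B-27, 30.8 and 62.6 CPM in BMP2/4, 55.3 and 74.5 CPM in Rspo+BMP2/4 and 312 and 124 CPM with RARi. Gli3 was at 42.3 and 22.8, 40.0 and 64.6, 55.7 and 71.7, and 343 and 61.4 CPM in these conditions. Sufu stayed between 13.8 and 62.4 CPM.

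BMP2/4 was compared with B-27 first. Of 6265 genes tested on the sums, edgeR called 10.4%, and 0 of the 5 members tested were among them, with 0 at an unadjusted p under 0.05. The lowest p was for Gli2, with a log2 fold change of -1.02 (SE 0.54, adjusted p = 0.252). DESeq2 called 589 genes. Rspo+BMP2/4 against BMP2/4 gave 0 called genes with edgeR and with DESeq2 and 44 genes at an unadjusted p under 0.05, 0 of them members. There Ptch1 had a log2 fold change of 0.92 (SE 0.54, adjusted p = 1).

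RARi added to Rspo+BMP2/4 also gave 0 called genes with edgeR and with DESeq2 and 232 at an unadjusted p under 0.05, Gli2 (1.39, SE 0.50, adjusted p = 0.959) and Gli3 (1.123, SE 0.53, adjusted p = 0.959) among them. Without the RARi sum of mouse 1, the log2 fold change was 0.95 for Gli2 (adjusted p = 1), -0.05 for Gli3 and -0.21 for Ptch1. Without the RARi sum of mouse 2, Gli2 (1.73, adjusted p = 0.0366) and Gli3 (1.89, adjusted p = 0.0235) were called. In that 5-cell sum of mouse 1 the dermal papilla markers came to 697 CPM, with 7 of 8 markers at 0. The outer root sheath markers came to 6480 CPM there, against 19555 CPM in mouse 2. Such a low sum was not particular to it, with 6806 CPM in B-27 of mouse 1 and 7301 CPM in Rspo of mouse 2. The part of these marker differences in the values was not tested.

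**Figure D5:**
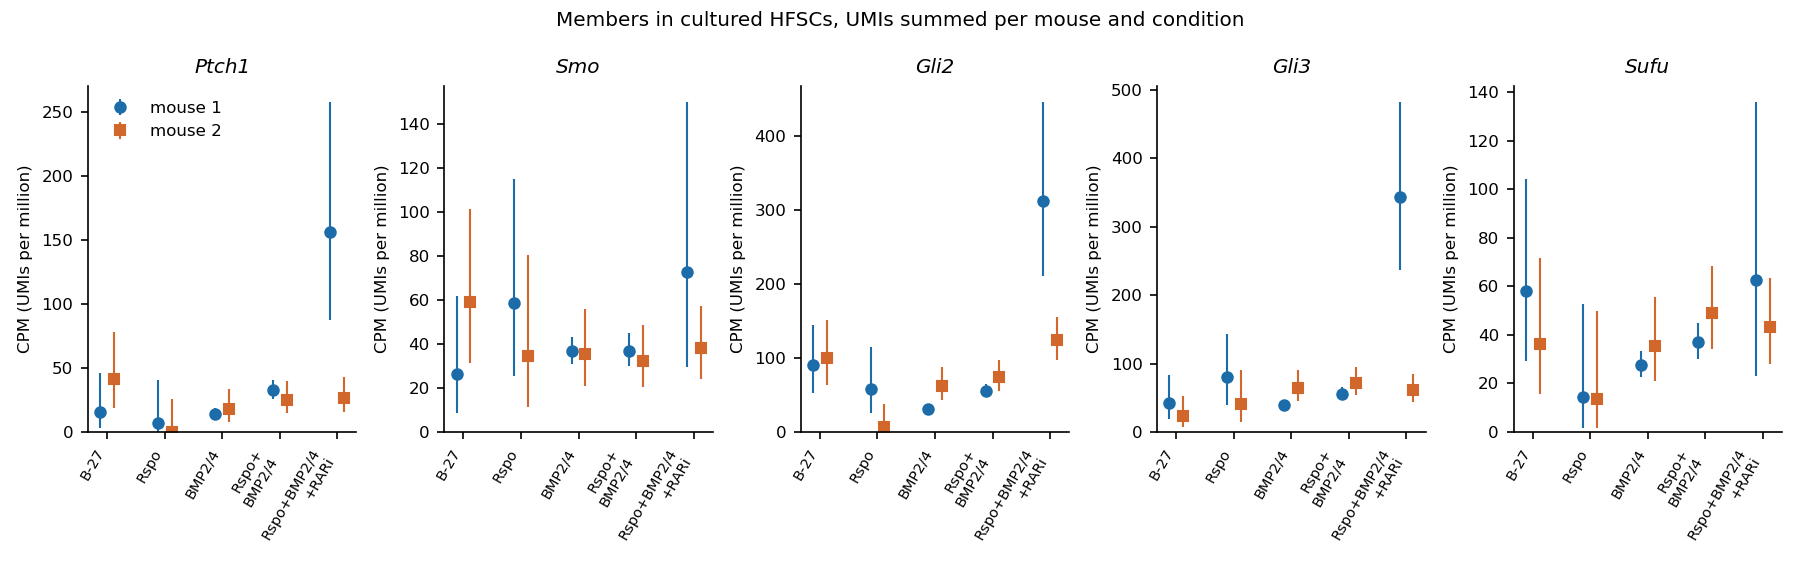
Level (CPM) of 5 members in sums of cultured HFSCs by hashtag condition. Each point is 1 mouse, with exact 95% intervals for counting error. The sum of 5 RARi cells from mouse 1 stands above the rest for Ptch1 (156 CPM), Gli2 (312 CPM) and Gli3 (343 CPM).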

How the data were processed

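Per the labels and methods, the authors quantified RNA-seq reads with Salmon 1.4.0 and deposited estimated counts per gene, which were rounded here, and a normalized signal, counts scaled by DESeq2 with a factor that differs between genes of 1 library, used only with limma. The authors made the deposited UMI counts of the single cell matrices with Cell Ranger, version 7.0.1 in the submitters' processing notes and 7.0.0 in the file headers. RNA-seq libraries held 25150200 to 35879600 counts.

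Counts were tested with edgeR 4.0.16 (TMM factors, quasi-likelihood test, all 8 libraries in 1 fit, 15965 genes tested, Benjamini-Hochberg, adjusted p under 0.05). DESeq2 1.42.0, other scalings and filters, a replicate block, left-out libraries and limma 3.58.1 on log2(normalized count + 1), the last chosen after seeing the data, were alternatives. The labels give each library's mouse as 1 or 2, read here as the same mouse in both media of a genotype, although deviations from the group means correlated weakly (0.0668 in wild-type and -0.0188 in cKO). Replicates differed by more than sampling noise (mean chi-square per gene 5.56 to 23.9).

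Skin cells were kept at a minimum of 500 genes and 1000 UMIs with less than 10% of UMIs from mitochondria, predicted doublets (833 and 307) were removed, and the rest were clustered with scanpy 1.11.5 (2000 variable genes, 30 components, 20 neighbors, Leiden resolution 0.6) and named from marker lists. Hashtags were called with Seurat 5.3.0 (quantile 0.99), and UMIs were summed over at least 5 cells per mouse and condition. Intervals are exact Poisson or binomial at 95% and cover counting error only. The tests were tested on simulated data. Software was Python 3.11.15 and R 4.3.3.

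Members and lists were chosen with earlier results of these data known. The genes named are the members, every called gene of the ligand release, receptor, transduction and transcription factor lists, and up to 3 called genes of largest change in each other list.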

Additional observations from a re-analysis of the deposited data

Results flagged for a closer look

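The response to atRA+PKCi differed between wild-type and Rxra cKO HFSCs, by edgeR's test of the interaction (wild-type minus cKO, log2 scale), in 16 genes of the pathway lists, none of them a member. Among genes of ligand release and reception, Scube3 had 2.17 (adjusted p = 0.00183) and Cdon had -1.45 (adjusted p = 0.00179). Boc had 4.21, a value that depends on the prior count since wild-type FBS had 2 and 0 counts. Among transduction genes, Gpr161 had 0.73, Csnk1a1 had -0.51 and Prkaca had -0.55. Among genes reported as targets, Ccnd1 had 0.80, Foxm1 had 0.76, Ccnd2 had -0.70 and Bcl2 had 0.64. Among cilium genes, Ift80 had 1.10, B9d1 had 0.84, Tctn1 had 0.77, Ift88 had 0.66, Tulp3 had -0.57 and Rpgrip1l had 0.50. The adjusted p of these 16 genes was at most 0.0260, and 24.6% of all genes tested were called in this comparison.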

How the results depend on the processing

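Of the values of single members, 594 kept their direction and side of the threshold under the alternatives, 20 passed it only there, 15 lost it and 28 changed sign, none of the last being called. For counts of called members and levels in skin, 148 alternatives gave the same and 16 did not, by loose rules. A count near that of the main analysis was taken as the same, so 4 and 6 called members for cKO in FBS were. A level in skin was taken as the same within the SD of the mice. Leaving out either mouse meets this rule by construction, so those alternatives could not differ. The cause of a change was not tested unless stated. With a threshold of 0.01 on the adjusted p and at least a log2 change of 1 in either direction, a rule that is stricter by construction, the members called fell to 0 for the medium in wild-type, 0 for the medium in cKO and 1 for cKO in atRA+PKCi. For the interaction, 1 member was called with DESeq2 (Smo), 1 with RLE scaling (Smo) and 3 with no filter on low counts (Ptch1, Gli1 and Sufu). Leaving out 1 library at a time gave 1 to 2 members for the medium in wild-type, 2 to 4 in cKO, 4 to 6 for cKO in FBS, 2 to 3 for cKO in atRA+PKCi and 0 to 3 for the interaction, and 0 to 2 for RARi when 1 sum was left out. Where this leaves a group with 1 library, that library is assumed to vary like the others. The replicate block, which pairs the media by the labelled mouse, gave 1 and 3 called members for the medium in wild-type and cKO and 0 for the interaction and changed no member's call. It moved Gli3 in the wild-type medium comparison to 0.0055. The other sign changes were Smo for BMP2/4 (0.018) and Sufu for RARi (-0.042) with no filter, and Smo for Rspo+BMP2/4 (0.04996) with hashtags at 70% or more of the counts. With libraries left out, the medium in wild-type gave -0.13 to 0.32 for Ptch1, -0.020 to 0.11 for Smo, -0.21 to 0.22 for Gli3 and -0.39 to 0.085 for Sufu. Gli3 ran from -0.19 to 0.074 for the medium in cKO, from -0.38 to 0.044 for cKO in FBS and from -0.13 to 0.29 for the interaction, where Gli2 ran from -0.34 to 0.068. In cultures, BMP2/4 gave -1.37 to 0.21 for Ptch1 and -0.65 to 0.73 for Smo, Rspo+BMP2/4 gave -0.34 to 0.063 for Smo and -0.00053 to 0.51 for Gli3, and RARi gave -0.21 to 1.80 for Ptch1, -0.046 to 1.89 for Gli3 and -0.091 to 0.11 for Sufu. In skin, Shh in the matrix was 61.5 CPM at resolution 1.0, and no class was named matrix with stricter cell filters. With predicted doublets kept, Ptch1 and Hhip in the dermal papilla were 421 and 1043 CPM, and Hhip was 1275 CPM after thinning. Smo in the ORS was 102 CPM with stricter cell filters and 90.0 CPM at resolution 1.0. With sums of 5 to 27 cells in most culture conditions, depth limits what could be detected there.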

Other observations

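With skin cells clustered at a resolution of 1.0, Shh and Ptch1 were high together in 1 cluster and apart in others. Cluster 31, of 75 and 183 cells, was named hair matrix and led by Cdh6 and Edar. It had the highest Shh of all clusters, with 186 and 110 CPM, beside 370 and 485 CPM of Ptch1 and 391 and 498 CPM of Gli2. Cluster 11, also named hair matrix and led by Cldn10, Mt2 and Moxd1, had 38.7 and 72.2 CPM of Shh and 108 and 140 CPM of Ptch1. Cluster 10, which stayed unnamed and was led by Tmtc1, Lgr6 and Mycl, had 0.557 and 1.47 CPM of Shh and 246 and 296 CPM of Ptch1.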
